A study of Mus musculus with 2 samples.

Results

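The Rab genes, which encode small GTPases of vesicle traffic, were followed in the nucleoplasmic RNA of mouse macrophages. A gene belonged to the set when its annotated name was Rab with a number and an optional letter and it had at least 1 protein-coding transcript. This gave 59 genes of 55450 annotated genes in the tables, and both libraries listed every one of them.

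The cells were primary bone-marrow-derived macrophages of C57BL/6J mice, phagocytes grown in culture from marrow. Lipid A, the TLR4-binding core of lipopolysaccharide, was given at 100 ng/ml for 12 h, taken away for 12 h, and given at 100 ng/ml a second time for 25 min. Both libraries, biological replicates 1 and 2, had this treatment and formed 1 group. Their donor entries are the same, and an SD over them may hold technical spread alone. The RNA input was 500 ng for replicate 1 and 1 µg for replicate 2, and replicate and RNA input cannot be told apart. No untreated, singly treated or cytoplasmic sample was analysed here, so no value below is a response to lipid A.

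Ribosomal-RNA-depleted total RNA was sequenced, with 20130376 expected counts on annotated genes in replicate 1 and 19566152 in replicate 2. The Rab genes together held 0.251% of the counts in replicate 1 and 0.226% in replicate 2. Levels are given as TPM, the abundance unit that divides by transcript length and is scaled to 1 fixed total per library, so that genes can be set beside each other. All 8 macrophage markers listed were above 1 TPM in both libraries, from 71.9 TPM in replicate 1 and 69.9 TPM in replicate 2 upwards. Of 16 markers of neutrophils, lymphocytes, stromal cells and neurons, none reached 1 TPM in both libraries, and 10 had 0 counts in both. Those at 0 were Ly6g, Cxcr2, Mpo, Elane, Retnlg, Cd3e, Ncr1, Pdgfra, Epcam and Snap25.

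Rab proteins act as switches. In the GTP-bound form they sit on a membrane and recruit effectors that move, tether or fuse vesicles, and in the GDP-bound form they are drawn off the membrane by GDI proteins. Each compartment carries its own members, so that a phagosome or endosome exchanges Rab5 proteins for Rab7 as it matures towards the lysosome. In macrophages this traffic carries ingested particles to degradation, delivers cytokines to the surface and helps to set how much TLR4 is there. The labelled RNA is nuclear, so it shows transcripts before or without export, and not protein.

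Of the 59 Rab genes, 39 (66.1%) were at 1 TPM or more in both libraries, against 45.1% of all 21888 nuclear protein-coding genes. The median Rab gene had 8.83 TPM in replicate 1 and 6.72 in replicate 2, 7.78 ± 1.49 TPM on average (SD, n = 2), whereas the median of the other 21829 coding genes was 0.510 ± 0.0707 TPM. On the log2(TPM + 1) scale the Rab median lay 2.53 ± 0.18 units above the other median (SD, n = 2). Among genes with at least 10 expected counts in both libraries, 42 of them Rab genes, the difference was smaller, 0.85 ± 0.03 (SD, n = 2). These are descriptions of 2 libraries, with no test of the list against other genes, and in RNA from many cells fewer cells with a transcript and less of it per cell cannot be told apart.

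**Figure D1:**
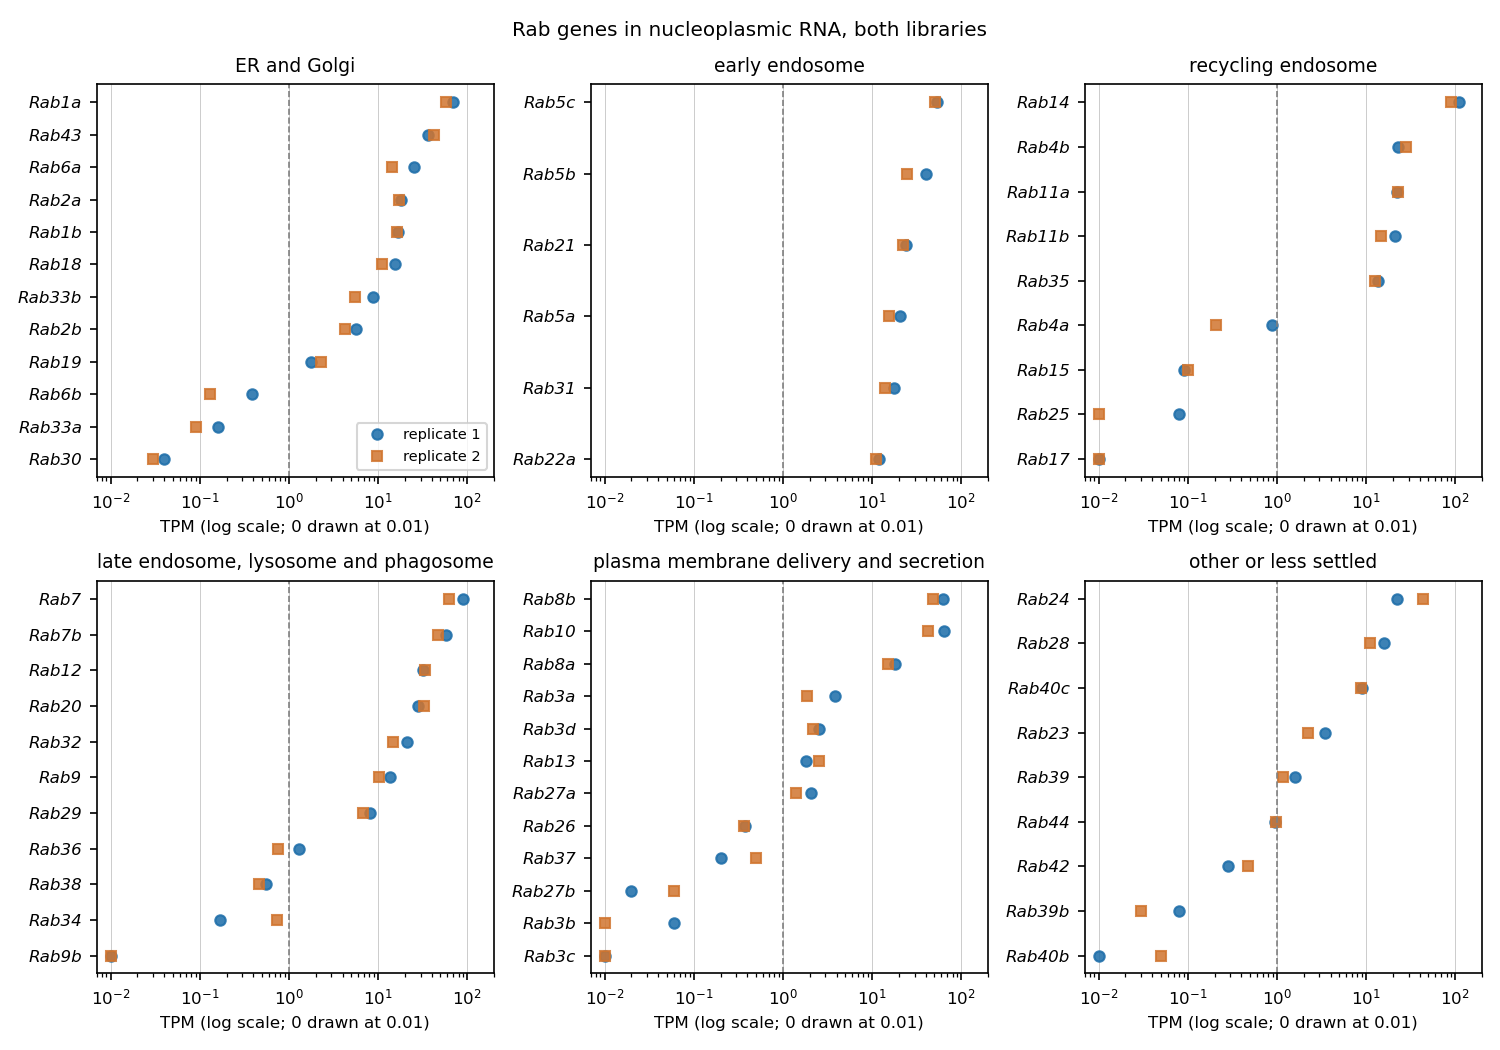
TPM of each of the 59 Rab genes in replicate 1 (circles) and replicate 2 (squares), on a log axis with 0 drawn at 0.01, in panels by the main role of the protein. All 6 early endosome genes lie above 10 TPM, and every panel but that one has genes below the dashed line at 1 TPM.

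The set spanned a wide range. In both libraries 28 genes were at 10 TPM or more and 4 at 50 TPM or more, while 19 were under 1 TPM in both and Rab3c, Rab9b and Rab17 had 0 counts. These counts describe the spread within the set, and the same shares over all coding genes are not given. The 10 highest genes carried 60.4% of the summed Rab TPM in replicate 1 and 59.4% in replicate 2. With all transcripts of a gene summed, Rab14 led the set and ranked 442nd among coding genes by mean TPM.

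Most Rab proteins share a run of residues in the switch II loop that contacts the nucleotide, and its 7 codons can be spelled differently between members. These codons were found in frame in 35 of the 42 coding sequences of Rab genes with at least 10 counts in both libraries, written in 29 different ways. The 7 sequences without the pattern were those of Rab7b, Rab20, Rab24, Rab28, Rab29, Rab32 and Rab40c. The stretches below are shown because they include the paralogues whose levels are compared later, whose reads must be told apart. They are 57 bases of the coding strand of the leading coding transcript in GENCODE M21 (GRCm38), 5′ to 3′, with the switch II codons in capitals.
Rab1a: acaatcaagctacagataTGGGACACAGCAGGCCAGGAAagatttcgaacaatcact
Rab1b: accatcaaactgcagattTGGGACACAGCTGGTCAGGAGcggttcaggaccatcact
Rab5a: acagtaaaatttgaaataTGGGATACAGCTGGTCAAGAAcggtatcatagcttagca
Rab5b: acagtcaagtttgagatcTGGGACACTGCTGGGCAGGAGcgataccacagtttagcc
Rab5c: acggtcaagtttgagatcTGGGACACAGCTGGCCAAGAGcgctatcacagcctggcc
Rab7: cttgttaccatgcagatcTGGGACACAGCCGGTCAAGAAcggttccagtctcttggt
Rab8a: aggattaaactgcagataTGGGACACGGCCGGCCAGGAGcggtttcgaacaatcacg
Rab8b: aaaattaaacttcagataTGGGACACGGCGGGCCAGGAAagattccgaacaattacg
Rab14: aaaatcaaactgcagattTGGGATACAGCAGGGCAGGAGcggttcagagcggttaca
Within these 21 bases the paralogue pairs differed at 2 to 5 positions, with Rab5a and Rab5b the most different at 5. The matched sequences encode the same 7 residues, so only differences that keep the residue could appear there. Over whole leading transcripts, the longest run of identical bases in a pair of paralogues with at least 10 counts was 38 bases, between Rab1a and Rab1b, and the shortest was 14, between Rab11a and Rab11b and between Rab6a and Rab6b. The read length is not given in the sources used here, so reads shorter than such a run could be shared.

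For the endoplasmic reticulum and Golgi, the median Rab gene lay at 10.2 ± 2.73 TPM (SD, n = 2), and 9 of 12 were at 1 TPM or more in both libraries. Rab1a, which directs vesicles from the endoplasmic reticulum to the Golgi, had 69.3 TPM in replicate 1 and 57.2 in replicate 2. Rab43, a Golgi member, had 36.0 and 42.5 TPM in replicates 1 and 2. Rab6a, which serves retrograde transport at the Golgi, had 25.1 and 14.5 TPM. Its gap was smaller on counts, 1072 and 809, with a log2 ratio of 0.26 by TMM-normalised CPM, and the coding transcript Rab6a-203 held 61.2% of its counts in replicate 1 and 0.520% in replicate 2. Rab2a, of transport between the endoplasmic reticulum and the Golgi, had 18.2 and 17.1 TPM, and Rab1b had 16.6 and 16.3 TPM. Rab18, linked to the endoplasmic reticulum and lipid droplets, had 15.5 TPM in replicate 1 and 11.1 in replicate 2. Rab2b had 5.71 and 4.23 TPM, and Rab19 had 1.78 and 2.32 TPM. Rab33b, whose protein binds the autophagy factor ATG16L1, had 8.83 and 5.51 TPM, and its paralogue Rab33a had 0.160 and 0.0900 TPM. The low members were the largely neuronal Rab6b, at 0.390 and 0.130 TPM, and Rab30, a Golgi protein, at 0.0400 and 0.0300 TPM.

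The early endosome was the one role group in which every gene was well expressed. The median of its 6 genes was 20.5 ± 2.40 TPM (SD, n = 2), the highest of the 6 role groups. Rab5c, one of 3 genes for the Rab5 proteins that drive fusion of early endosomes, had 54.0 TPM in replicate 1 and 50.8 in replicate 2. Rab5b had 40.5 and 24.7 TPM, and Rab5a had 20.4 and 15.3 TPM. By TPM the order was Rab5c, Rab5b and Rab5a in both libraries, but by expected counts Rab5b was first in replicate 1, with 2094 counts against 1815 for Rab5c. Rab21, which acts in the uptake of integrins, had 24.01 and 22.3 TPM. Rab31, of traffic between the trans-Golgi network and endosomes, had 17.5 and 14.1 TPM, and Rab22a had 12.0 and 11.1 TPM.

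Recycling endosome genes were split. Their median was 13.2 ± 0.919 TPM (SD, n = 2), with 5 of 9 at 1 TPM or more in both libraries and the other 4 (Rab4a, Rab15, Rab17 and Rab25) below 1 TPM in both. Rab14, which works between the Golgi and endosomes and on phagosomes, had 109.8 TPM in replicate 1 and 90.0 in replicate 2. With all transcripts of a gene summed, this was the highest Rab level in each. Its coding transcripts Rab14-201 and Rab14-212 had 58.1 and 4.44 TPM in replicate 1, and 41.8 and 5.92 in replicate 2. Rab7 had more on coding transcripts, with 88.9 and 63.4 TPM. Rab4b, of rapid recycling, had 22.9 and 27.9 TPM, of which its coding transcript Rab4b-201 held 7.85 and 12.5. Rab11a, whose protein carries TLR4 from recycling endosomes to phagosomes, had 22.3 and 23.1 TPM, and Rab11b had 21.2 and 14.8 TPM. Rab35, of the fast route back to the plasma membrane, had 13.8 and 12.5 TPM. Rab17 and Rab25 are known from epithelial cells, and Rab17 had 0 counts in both libraries while Rab25 had 1 count, in replicate 1. At this depth a gene with 0 counts can hold up to 1.49e-05% of replicate 1 and 1.53e-05% of replicate 2, by counting error only.

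Rab4a, the other Rab4 gene, had 20 counts in replicate 1 and 4 in replicate 2. The annotated coding gene Gm20388 spans all of its 29303 bases on the same strand and had 1501 and 371 counts, or 20.2 and 4.53 TPM. Reads can be split between these gene models, so the low level of Rab4a is uncertain. In all, 10 Rab genes overlapped another gene with at least 100 counts in both libraries. Among them, Rab20 overlapped Gm20100 (1044 and 1107 counts) and Rab43 overlapped Gm44423 (1155 and 854), each on the same strand. How reads were split between such genes was not tested.

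Genes of the late endosome, lysosome and phagosome took the largest part of the Rab signal, 24.8% of the summed Rab TPM in replicate 1 and 24.2% in replicate 2. Their median was 12.0 ± 2.30 TPM (SD, n = 2), with 7 of 11 at 1 TPM or more in both. Rab7, which directs fusion with lysosomes, had 88.9 TPM in replicate 1 and 63.4 in replicate 2. Rab7b, whose protein sends TLR4 to degradation, had 58.1 and 47.0 TPM. Both were thus among the 7 highest Rab genes by mean TPM. Rab12, which moves receptors from recycling endosomes to lysosomes, had 32.3 and 33.6 TPM. Rab20, a phagosome maturation factor, had 27.8 and 32.5 TPM. Rab32, of lysosome-related organelles and host defence, had 21.4 and 14.8 TPM, whereas its relative Rab38, best known from pigment cells, had 0.550 and 0.460 TPM. Rab9, of the route from late endosomes back to the Golgi, had 13.6 and 10.4 TPM, and Rab29, a partner of the kinase LRRK2, had 8.14 and 6.72 TPM. Rab34 and Rab36 of lysosome positioning were low, with 0.170 and 0.740 TPM for Rab34 and 1.31 and 0.760 TPM for Rab36. Rab9b was at 0 counts in both libraries. In a second deposited table, in the layout kallisto writes and rescaled to coding genes, Rab34 had 13.0 and 19.3 TPM. Its low level thus depends on the quantification.

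Genes for delivery to the plasma membrane and for regulated secretion lay low, at a median of 1.79 ± 0.216 TPM (SD, n = 2), with 7 of 12 at 1 TPM or more in both libraries. The 3 high members serve general delivery to the surface. Rab8b had 62.8 TPM in replicate 1 and 47.7 in replicate 2, and Rab10, whose protein brings TLR4 to the surface, had 64.0 and 42.0 TPM. Rab8a, the third, had 18.3 and 15.2 TPM, of which its coding transcript Rab8a-201 held 7.17 and 6.39. The granule Rab genes were far lower. Rab27a, which docks lytic granules and melanosomes, had 2.07 and 1.39 TPM, and Rab3d, of secretory granules, had 2.52 and 2.17 TPM. Rab3a, of synaptic vesicles, had 3.84 and 1.89 TPM. Rab13, known from tight junctions, had 1.82 and 2.52 TPM. Rab37, of granule secretion, had 0.200 and 0.500 TPM from 8 and 19 counts, and it overlaps Cd300lf on the opposite strand, which had 4158 and 6514 counts. Rab26 and Rab27b were below 0.5 TPM in both libraries, as was Rab3b, and Rab3c had 0 counts. In the kallisto-layout table rescaled to coding genes, Rab3c had 15.6 and 7.98 TPM, Rab3b 6.46 and 3.14 and Rab27b 6.20 and 3.97. Rab37 had 3.95 and 3.87 TPM there, Rab26 had 1.85 and 2.76, and Rab8b had 153 and 134. How low these genes are thus depends on the quantification.

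Of the 9 genes with other or less settled roles, 5 were at 1 TPM or more in both libraries, and the median was 1.39 ± 0.311 TPM (SD, n = 2). Rab24, an atypical member linked to autophagy, had 22.5 TPM in replicate 1 and 43.1 in replicate 2, the widest ratio between the libraries among the 25 highest Rab genes on the TPM scale. Rab28, a member with a role in cilia and the retina, had 15.9 and 11.1 TPM. Rab40c, whose protein carries a SOCS box that recruits a ubiquitin ligase, had 9.11 and 8.73 TPM. Rab23, an inhibitor of Hedgehog signalling, had 3.44 and 2.21 TPM, and Rab39 had 1.61 and 1.17 TPM. Rab44, a large member with a calcium-binding part, lay just under the threshold at 0.95 and 0.99 TPM. Rab42, Rab39b and Rab40b were below 0.5 TPM in both libraries.

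The Rab set holds 14 numbers that are carried by more than 1 gene, and in 7 of them at least 2 paralogues were at 1 TPM or more in both libraries. Rab1a held 79.2 ± 2.02% of the summed TPM of Rab1a and Rab1b, and Rab2a held 78.1 ± 2.91% of the Rab2 pair (SD, n = 2). Rab8b held 76.7 ± 1.17% of the Rab8 pair by TPM and 88.3 ± 1.15% by expected counts. The Rab8a TPM includes the 542-base retained-intron transcript Rab8a-202, with 11.1 TPM in replicate 1 and 8.82 in replicate 2. The coding transcript Rab8a-201 had 7.17 and 6.39 TPM, against 62.8 and 47.7 for Rab8b-201. Rab7 and Rab7b were closer, with 58.9 ± 2.15% for Rab7. By expected counts, which are not divided by length, Rab7 held 48.1 ± 2.35%, so the order of the pair turns with the scale. Rab11a held 56.1 ± 6.93% of its pair by TPM and 47.9 ± 1.73% by counts, so neither gene led on both scales. Rab5c held 51.5 ± 6.28%, Rab5b 31.2 ± 5.64% and Rab5a 17.3 ± 0.636% of Rab5 TPM. By counts the shares were 41.6 ± 6.13% for Rab5c and 38.9 ± 5.75% for Rab5b, with Rab5b first in replicate 1, so only Rab5a kept its place on both scales, as the lowest. Of the 4 Rab3 genes, Rab3a held 59.8% of TPM in replicate 1 and 46.6% in replicate 2, and Rab3d was higher in replicate 2, so no order can be given. In the estimated counts of the kallisto-layout table Rab3c held 64.6% and 50.9% of the Rab3 genes, against 0 expected counts.

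**Figure D2:**
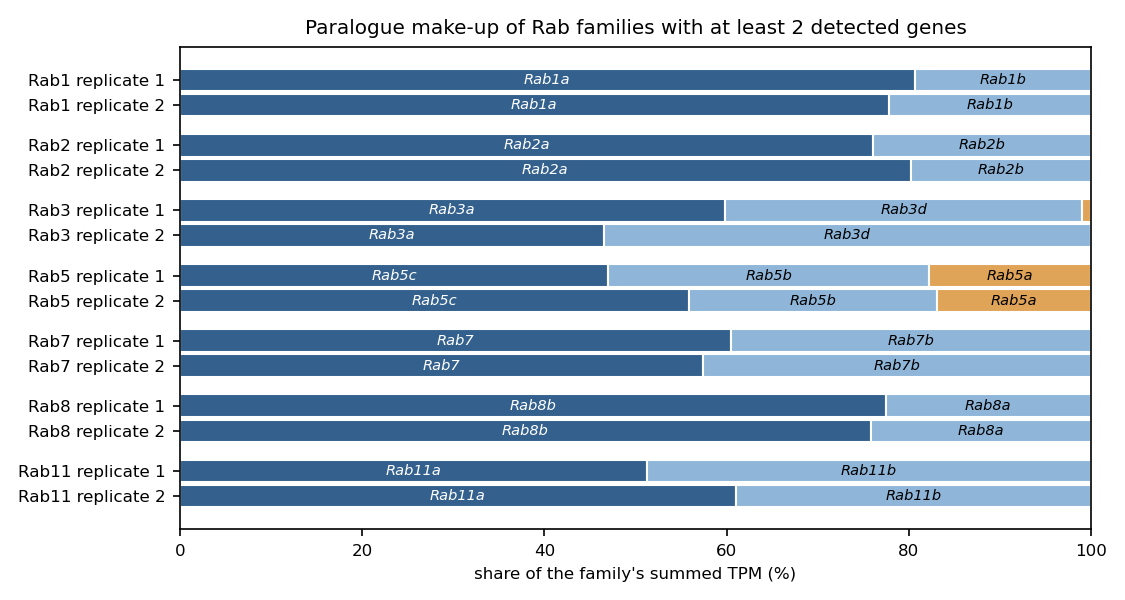
Share of each family's summed TPM, in percent, held by each gene in replicate 1 and replicate 2, for the 7 Rab numbers with at least 2 genes at 1 TPM or more in both libraries. Rab1a, Rab2a and Rab8b take over 75% of their pairs in both libraries, and the leading Rab3 gene changes between the libraries.

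In the other 7 numbers a single gene was at 1 TPM or more in both libraries. Rab6a held 98.8 ± 0.456% of the TPM of its pair, Rab33b 98.3 ± 0.122% and Rab4b 97.8 ± 2.11% (SD, n = 2). The Rab4b share is uncertain, because reads of Rab4a can be split with the overlapping Gm20388, and its SD does not cover this. Rab9 held 100% in both libraries and Rab40c 99.7 ± 0.403%. Rab27a held 97.5 ± 2.25% and Rab39 96.4 ± 1.58%. In the second set of deposited values, the estimated counts in the layout kallisto writes, Rab27a held 36.1% of the counts of its pair, against 94.5% of expected counts, so which Rab27 gene led depends on the quantification. Rab9 led in both tables, with 73.8% of the kallisto-layout counts of its pair and 100% of expected counts.

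For some Rab genes, many counts were assigned to transcripts annotated as retained-intron. Nuclear RNA also holds unspliced RNA, whose intron reads may count for these transcripts. Unspliced and retained-intron RNA cannot be told apart here. The annotation holds 53 retained-intron transcripts in 26 Rab genes, and these took 9.38 ± 0.212% of the expected counts of all Rab genes (SD, n = 2), against 13.3 ± 0.392% in the other coding genes. Without Rab14, an alternative chosen after seeing the data, the share was 3.78 ± 0.0663%. Of the 13 Rab genes with such a transcript and at least 100 counts in both libraries, 6 had 25% or more of their counts on it in both. This 6 of 13 stands beside 30.1% of all 5493 coding genes under the same rule. The rule uses counts, which are not divided by length. By TPM, Rab8a and Rab12 pass 25% as well, and Rab28 and Rab24 do not in replicate 2. Rab8a-202 holds 11.1 of 18.3 TPM of its gene in replicate 1 and 8.82 of 15.2 in replicate 2. Rab28-204 holds 2.55 of 11.1 TPM in replicate 2. The median share of the 13 was 12.3% in replicate 1 and 13.4% in replicate 2, below the 14.4% and 14.6% of the other 5480 coding genes. A further 20 Rab genes with 100 counts or more, Rab7 and Rab1a among them, have no annotated retained-intron transcript. Reads from their introns cannot count for one, but other annotated transcripts may take them. Gm44187, for example, overlaps Rab7 on the same strand and had 465 and 492 counts. Whether its reads come from Rab7 introns was not tested.

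**Figure D3:**
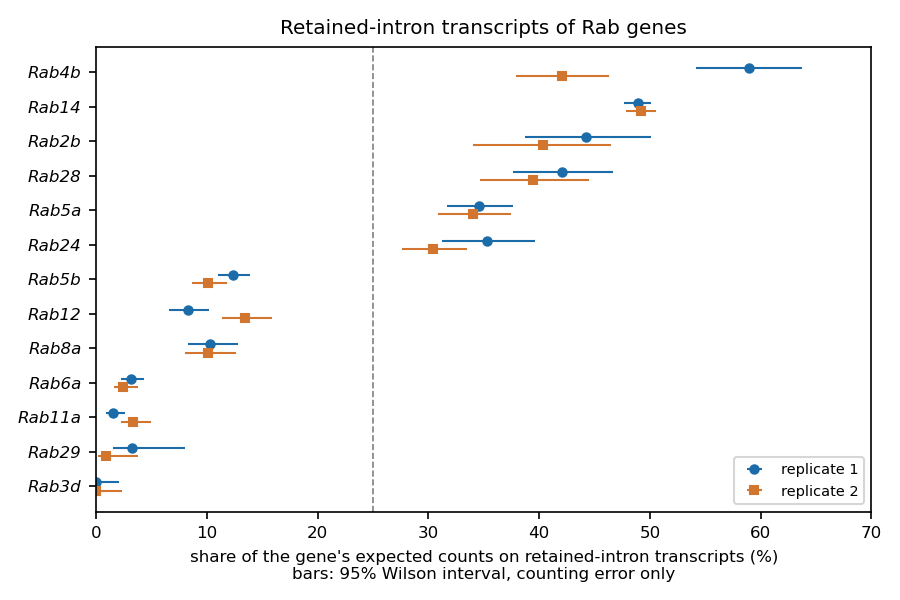
Share of each gene's expected counts, in percent, on retained-intron transcripts in replicate 1 (circles) and replicate 2 (squares), with 95% Wilson intervals that cover counting error only, for the 13 Rab genes with such a transcript and at least 100 counts in both libraries. On this count scale Rab4b, Rab14, Rab2b, Rab28, Rab5a and Rab24 lie above the dashed line at 25% in both libraries. The next gene on it, Rab5b, is at 11.2% on average.

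Rab14 (ENSMUSG00000026878.17, chromosome 2, 35180205 to 35201120, minus strand, mm10) had 6492 counts in replicate 1 and 5262 in replicate 2. Of these, 48.9% (95% Wilson interval 47.7 to 50.1%) and 49.2% (47.9 to 50.6%) were on retained-intron transcripts. The coding transcript Rab14-201 had 3301 and 2634 counts. Next came Rab14-210, with 1794 and 1355 counts. It starts in exon 1, covers 4780 of the 8080 bases of intron 1 (35192680 to 35200759) and ends inside it. Rab14-202, with 706 and 644 counts, keeps introns 6 and 7 whole, of 320 and 945 bases, between coding exons. Rab14-209, with 567 and 432 counts, covers 1345 of the 1434 bases of intron 3 and 2194 of the 3159 bases of intron 4. Of the retained-intron transcripts, the one over the first intron thus held the most counts in both libraries.

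**Figure D4:**
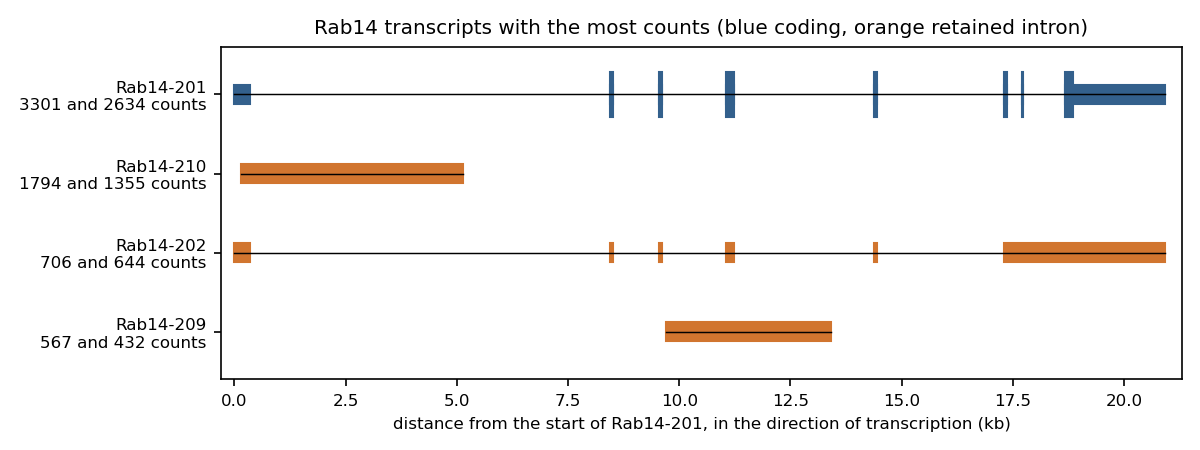
Exons (boxes, taller where coding) and introns (lines) of the 4 Rab14 transcripts with the most counts, against the distance in kb from the start of Rab14-201, with expected counts of replicate 1 and replicate 2 at the left. Rab14-210 is a single block over the first intron, and Rab14-202 ends in a block that joins the last 3 exons and introns 6 and 7.

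Among the 13 genes with 100 counts in both libraries, Rab4b had the highest mean share, and the libraries differed, with 59.0% (95% Wilson interval 54.2 to 63.8%) in replicate 1 and 42.1% (37.9 to 46.3%) in replicate 2. Rab4b-205, with 214 and 173 counts, keeps the whole 264-base intron 2 (chromosome 7, 27175894 to 27176157). Its coding transcript Rab4b-201 had 152 and 273 counts. Rab2b had 42.3 ± 2.80% (SD, n = 2) on Rab2b-208, which keeps introns 4 and 7 of 183 and 881 bases whole. Rab2b overlaps Tox4, with 2059.7 and 1978 counts, on the opposite strand over 400 bases. The first ends of 4 introns that are kept whole between coding exons are printed because reads across these exon-intron borders are what separates the retained form from the spliced one. Each line gives the last 30 bases of the exon in lower case and the first 30 bases of the intron in capitals, 5′ to 3′ on the transcript strand, from GENCODE M21 transcripts (GRCm38).
Rab14 intron 6: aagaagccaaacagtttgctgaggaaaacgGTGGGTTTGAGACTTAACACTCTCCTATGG
Rab14 intron 7: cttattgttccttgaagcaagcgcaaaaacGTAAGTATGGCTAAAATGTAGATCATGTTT
Rab4b intron 2: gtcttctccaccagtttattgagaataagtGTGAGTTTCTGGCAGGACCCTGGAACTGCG
Rab2b intron 4: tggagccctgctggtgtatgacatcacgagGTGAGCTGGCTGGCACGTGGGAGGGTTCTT
Each of these introns opens with GT, the usual first bases of a spliced intron.

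In 2 other genes the retained-intron transcript is mostly or wholly intron. Rab28-204, with 170 and 150 counts, lies inside the 7310-base intron 6 of Rab28 and covers 2891 bases of it, and the gene had 40.8 ± 1.85% of its counts on such transcripts (SD, n = 2). Rab5a-202, with 334 and 274 counts, covers 2904 of the 4212 bases of intron 1 of Rab5a (chromosome 17, 53479609 to 53483820), and the gene had 34.3 ± 0.381%. Rab24 differs, since its retained-intron transcripts keep several short introns of 79 to 209 bases whole. Its share was 32.9 ± 3.40%, and Rab24 overlaps Prelid1, with 806 and 681 counts, on the opposite strand over 1447 bases. Rab23 had 58.4% and 50.8% in replicates 1 and 2, from 153 and 89 counts in all.

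Transcripts other than protein-coding ones, with nonsense-mediated decay and processed transcripts added, took 10.4 ± 0.0663% of Rab counts (SD, n = 2), against 17.98 ± 0.460% in the other coding genes. Among Rab genes past 100 counts in each library, the 5 highest shares were those of Rab4b at 54.8 ± 10.02%, Rab14 at 49.1 ± 0.353%, Rab2b at 43.8 ± 2.56%, Rab40c at 42.4 ± 22.6% and Rab28 at 40.8 ± 1.85%. For Rab40c this was the processed transcript Rab40c-205, with 214 counts in replicate 1 and 73 in replicate 2, and the spread between libraries is too wide for the share to be called high. Rab43, picked out after its values were seen, had a similar gap inside its coding RNA. Rab43-201 had 2280 and 1282 counts in replicates 1 and 2 and Rab43-203 had 78 and 1743, although the gene totals were 2503 and 3260.1.

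Only Rab6b and Rab24 differed by 2-fold or more between the libraries, among 42 Rab genes compared. Ratios were taken of replicate 1 over replicate 2 on CPM, counts scaled to library size, after TMM normalisation, which takes out a shared shift, for the Rab genes with at least 10 counts in both. With 1 library on each side there is no test, and a gene was called when the libraries differed by 2-fold or more. Rab6b was the 1 gene past 2-fold towards replicate 1, where 2.01% of 11352 coding genes were called. Rab24 was the 1 gene past 2-fold towards replicate 2, where 3.68% were called. The median size of the log2 ratio, either way, was 0.22 for the Rab genes and 0.30 for the coding genes. At 100 counts or more in both libraries it was 0.18 for 33 Rab genes and 0.27 for coding genes. The signed median was 0.10 for the Rab genes and -0.01 for the coding genes, and 25 of 42 Rab genes were higher in replicate 1.

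Rab24 had 487 counts and 23.3 TMM-normalised CPM in replicate 1, and 926 counts and 49.1 CPM in replicate 2, a log2 ratio of -1.07. By TPM, where the median coding gene lay at 0.26 for replicate 1 over replicate 2, Rab24 was within 2-fold, so its call rests on the scaling, and with DESeq2 size factors it was past 2-fold. Prelid1, which overlaps it, went the other way on counts. Rab6b had 37 counts and 1.77 CPM in replicate 1 and 14 counts and 0.742 CPM in replicate 2, a log2 ratio of 1.26. Neither Rab6b nor Rab24 was past 2-fold in the kallisto-layout table rescaled to coding genes, where Rab6b had 1.16 and 0.684 TPM, and Rab6b is below the limit of 100 counts. By TPM, Rab3a was past 2-fold too, with a log2 ratio of 1.02 from 79 and 41 counts, against 0.80 by TMM-normalised CPM.

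**Figure D5:**
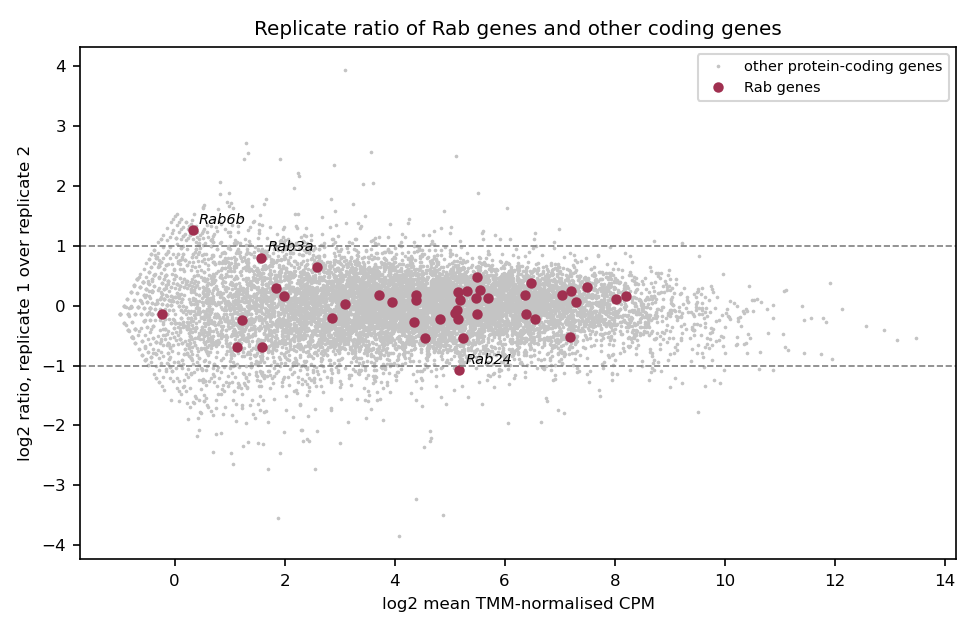
Log2 ratio of replicate 1 over replicate 2 against log2 mean TMM-normalised CPM, for 42 Rab genes (large points) and the other protein-coding genes (small points) with at least 10 counts in both libraries, with dashed lines at 2-fold. Rab6b and Rab24 lie beyond the lines, and Rab3a, at 0.80, is the next named gene inside them.

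The genes that run the Rab cycle were measured beside the Rab genes. Of 117 genes in 4 lists, 99 passed the threshold of 1 TPM or more in both libraries, beside 45.1% of all coding genes. All 8 genes for prenylation and extraction from membranes did so. Gdi2, which encodes a GDP dissociation inhibitor, had 102 TPM in replicate 1 and 64.1 in replicate 2. Rabggtb, a subunit of the enzyme that attaches the lipid anchor, had 15.7 and 13.7 TPM.

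Exchange factors, which load Rab proteins with GTP, passed in 29 of 33. Dennd1a had 103 TPM in replicate 1 and 98.3 in replicate 2, and Dennd1b had 72.8 and 58.1 TPM. Both encode exchange factors for Rab35, which itself stood at 13.8 and 12.5 TPM. Ric1, part of the exchange factor for Rab6, had 74.9 and 66.9 TPM. GTPase-activating proteins, which switch Rab proteins off, passed in 30 of 33, and Tbc1d13 led with 88.2 and 92.0 TPM, followed by Rab3gap2 with 50.9 and 53.2 TPM and Tbc1d2b with 49.1 and 47.4 TPM.

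Effectors passed in 32 of 43. Myo5a, a motor that carries vesicles bound by Rab proteins, had 211 TPM in replicate 1 and 177 in replicate 2. Appl2, an early endosome effector of Rab5, had 114 and 101 TPM, and Ehbp1l1, a Rab8 effector, had 73.4 and 85.02 TPM. Sytl2, Sytl4 and Sytl5, effectors of Rab27, and Rims1 and Rph3a, effectors of Rab3, had 0 counts in both libraries, as did Myrip, which links Rab27 to myosin, and these 6 are named after their values were seen. Other Rab27 effectors on the list were not at 0, among them Unc13d, which acts in granule release, at 10.1 and 15.0 TPM. Sytl3 had 7 and 4 counts, Sytl1 had 0 and 2, and Mlph had 1 and 2. Past 2-fold between the libraries were Bicd1 towards replicate 1, with a log2 ratio of 1.13, and Dennd6b, Rilpl1 and Dennd5b towards replicate 2, with -1.35, -1.34 and -1.001, so 1 and 3 of 105 partner genes with 10 counts or more in both. The shares over all coding genes were 2.01% and 3.68%, near those of the partners.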

How the data were processed

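The authors' deposited expected counts and TPM per gene and per transcript came from transcriptome alignments to mm10 with GENCODE M21, per the file headers and notes, and the estimated counts and TPM of a second table came directly from the reads. Their columns have the layouts RSEM and kallisto write, and no source used here gives the programs or the strand setting, so overlapping antisense genes cannot be told apart. Reads count for an intron only where a transcript holding it is annotated.

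Gene names and biotypes came from the tables and coordinates and sequences from GENCODE M21. Protein-coding genes are those with a protein-coding transcript, outside the mitochondrial genome. Members and lists were chosen with earlier results of these data known. Named were the 25 highest members, paralogues, members past 2-fold, the 5 highest non-coding shares, and the 3 highest and past-2-fold partners. One named partner is not reported here. Expected counts were rounded and TMM factors taken with edgeR 4.0.16 (R 4.3.3) on genes with 10 counts or more in both libraries. DESeq2 1.42.0 size factors, the second table, posterior mean TPM, other thresholds and single libraries were alternatives. Python 3.11.15, pandas 2.3.3, numpy 2.4.6 and scipy 1.17.1 were used. The ratio step was tested on simulated data, with changes larger than 2-fold and only in well-counted genes. That test did not cover changes near 2-fold or at low counts. Of the planned protein motifs, only the switch II run was searched, as codons, since protein sequences were not used here. The other nucleotide-binding motifs, the C-terminal cysteine pattern and protein identity between paralogues were not examined.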

Additional observations from a re-analysis of the deposited data

Results flagged for a closer look

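Rab3c and Rab9b had 0 expected counts in both libraries but held estimated counts in the kallisto-layout table, which the main levels above do not use. For Rab3c these were 965 in replicate 1 and 339 in replicate 2, and for Rab9b 245 and 128. The limit given above for a count of 0 covers counting error in the expected counts, and not a second quantification. The cause was not tested.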

How the results depend on the processing

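With 2 libraries of 1 group, no difference could be tested, and all values rest on annotated transcripts. The number of Rab genes detected stayed between 31 and 50 in every alternative tried, against 39. The difference of medians (2.53 log2 units) was 1.23 on kallisto-layout TPM, 2.12 after rescaling that table to coding genes, 2.09 with posterior mean TPM, 3.68 with a pseudocount of 0.1, 0.85 at 10 counts or more and 3.08 on TMM-normalised CPM. The 2 Rab genes past 2-fold became 42 on kallisto-layout TPM, where the median coding gene lay at 2.26 for replicate 1 over replicate 2. They became 1 on the rescaled table (Rab44), 8 with no count filter and 1 at 100 counts or more (Rab24). The share of counts outside coding transcripts (10.4%) was 13.1% in the kallisto-layout table, 14.9% by TPM and, chosen after seeing the data, 4.96% without Rab14. For retained introns (9.38%) these were 10.2%, 11.9% and 3.78%. Paralogue shares of counts in the kallisto-layout table were 79.6% for Rab2a (73.1% of expected counts), 33.4% for Rab3d (74.5%) and 83.7% for Rab8b (88.3%). The cause was not tested. No paired analysis was possible because there is 1 group.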
